A study of Mus musculus with 3 samples.

Results

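Chemokines are small secreted proteins that draw leukocytes along a gradient, and the 39 genes described here are 29 inflammatory chemokine ligands and 10 of their receptors. They were listed by name, and a gene was kept when any of its probes stood well above background on 1 or more of 3 arrays of islet graft-bearing mouse spleen. This left 34 genes, 24 ligands and 10 receptors, of 22851 genes detected on these arrays. The 5 ligands not detected were Cxcl15, Cxcl17, Ccl20, Ccl22 and Ccl28. Of these, Cxcl17 reached a normalized signal of 12.1 at most and Ccl22 11.5, while the dimmest members kept, Ccr1 and Ccl11, reached 36.7 and 41.9.

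The arrays asked which genes change in the spleen as transplanted islets engraft. All recipients were male C57BL/6J mice, made diabetic with streptozotocin, a toxin of beta cells. Each received 25 syngeneic islets in the spleen and 100 in the kidney capsule. Sample 1 is spleen taken right after transplantation (day 0), Sample 2 is spleen from day 2, and Sample 3 is spleen from day 139, from recipients that had lost their graft-bearing kidney by nephrectomy on day 100. The treatment text of the labels gives the capsular graft to every sample, whereas the characteristics list it for Sample 3 alone. Each sample is 1 array, with no replicate and no untransplanted spleen beside it, and the number of mice behind an array is not given in the sources used here. Every difference below therefore lies between these arrays, and time, operation, blood glucose and mouse cannot be told apart.

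Ligands are named by the spacing of their first cysteines, as CC, CXC, CX3C and XC chemokines, and their receptors are G protein-coupled. Most of the genes here are inflammatory, made when cells meet tissue damage, microbial products or cytokines such as tumor necrosis factor, interleukin 1 and interferon gamma, much of it through the transcription factor NF-kB and the IRF family. The Cxcr2 ligands draw neutrophils, the Ccr2 ligands draw monocytes, the eotaxins draw eosinophils, and the Cxcr3 ligands draw activated T cells and natural killer cells. In the spleen such signals act in the red pulp, a store of monocytes and neutrophils, beside the homeostatic chemokines that hold the white pulp together.

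The sequences just upstream of 5 of these genes are shown because 3 neighbors on chromosome 5, Cxcl1, Cxcl2 and Cxcl3, fell together and share a stretch of promoter, while Cxcl10 on the same chromosome and Ccl8 on chromosome 11 behaved differently. They were picked after the values were known. The sequences are the 250 bases before the start of the gene in RefSeq on GRCm38.p6, written 5′ to 3′ along the gene's strand, at chr5:90890995-90891244 (plus strand) for Cxcl1, chr5:90903649-90903898 (plus) for Cxcl2, chr5:90785851-90786100 (plus) for Cxcl3, chr5:92348890-92349139 (minus) for Cxcl10 and chr11:82114935-82115184 (plus) for Ccl8. Capitals mark matches to the kappaB motif, the binding sequence of NF-kB, and in Cxcl10 also GAAANNGAAA, the core of the interferon-stimulated response element.
Cxcl1: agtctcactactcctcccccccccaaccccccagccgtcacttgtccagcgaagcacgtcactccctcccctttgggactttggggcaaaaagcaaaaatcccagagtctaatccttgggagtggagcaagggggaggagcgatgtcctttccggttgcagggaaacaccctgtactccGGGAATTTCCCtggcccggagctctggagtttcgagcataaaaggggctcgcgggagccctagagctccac
Cxcl2: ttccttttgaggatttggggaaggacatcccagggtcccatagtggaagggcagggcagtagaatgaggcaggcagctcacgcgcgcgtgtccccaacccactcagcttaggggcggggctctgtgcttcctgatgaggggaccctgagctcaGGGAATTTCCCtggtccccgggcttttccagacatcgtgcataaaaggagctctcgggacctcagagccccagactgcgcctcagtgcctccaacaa
Cxcl3: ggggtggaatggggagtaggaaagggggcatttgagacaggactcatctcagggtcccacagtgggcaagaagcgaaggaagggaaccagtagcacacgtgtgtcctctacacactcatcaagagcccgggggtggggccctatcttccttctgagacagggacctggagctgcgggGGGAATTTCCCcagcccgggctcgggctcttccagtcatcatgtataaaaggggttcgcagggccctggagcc
Cxcl10: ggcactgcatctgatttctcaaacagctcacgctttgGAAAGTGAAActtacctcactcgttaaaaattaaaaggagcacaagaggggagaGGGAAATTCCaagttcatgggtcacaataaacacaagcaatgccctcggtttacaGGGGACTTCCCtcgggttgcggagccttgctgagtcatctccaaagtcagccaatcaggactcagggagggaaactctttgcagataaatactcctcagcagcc
Ccl8: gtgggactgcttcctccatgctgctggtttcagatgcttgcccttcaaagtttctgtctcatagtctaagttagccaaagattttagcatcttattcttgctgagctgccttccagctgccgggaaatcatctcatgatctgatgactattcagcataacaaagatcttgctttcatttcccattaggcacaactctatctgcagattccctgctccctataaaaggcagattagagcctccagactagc

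The same 11 bases, GGGAATTTCCC, stand in capitals upstream of Cxcl1, Cxcl2 and Cxcl3, starting 71, 97 and 73 bases before the start of the gene, and no other member with a window holds them. The word was taken as the longest run common to these 3 windows, so its presence in all 3 was set by that choice. They are among the 14 of 32851 promoter windows of this length, 0.0426%, that have the word on either strand. It overlaps the kappaB match. The wider kappaB motif, searched on both strands like the others, was found in 7.25% of the windows, and in 9 of the 29 members that had a window, namely Ccl20, Ccl9, Ccr1, Ccr3, Ccr6, Cxcl1, Cxcl10, Cxcl2 and Cxcl3. GAAANNGAAA was found in 2.98% of the windows and in Cxcl10 and Cxcl14 among the members. The Ccl8 window matched neither. Such matches describe letters in a window and are not evidence of binding.

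The intensities compared here came from a one-color array read with Agilent Feature Extraction, quantile normalized over the 3 samples. Between 50.4% and 54.4% of 55679 probes were well above background per array, and no gene spot was saturated. Of the 34 members, 34 were well above background on day 0, 33 on day 2 and 28 on day 139. The 7 spike-in controls were as bright on day 2 as on day 0, at 103% of day 0, but stood at 66.4% on day 139 before normalization, and scaling to them would place the median of all detected probes at 0.34 (log2) for day 139 over day 0 and 0.38 for day 139 over day 2. The error of a log2 ratio that the scanner's own spot error gives was 0.20 for bright members and up to 1.48 for those at background. It covers the spot, not the mouse.

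With the limits taken from the methods, a gene was called higher when its ratio was 1.5 or more with a Z-score of 2 or more, and lower when its ratio was 0.66 or less with a Z-score of -2 or less, where Z is the log2 ratio over the SD of the 1000 probes nearest in signal. The words rose and fell are kept for such calls. On day 2 over day 0, 3 members rose and 11 fell, against 2.23% and 2.91% of all detected genes. On day 139 over day 0, 3 rose and 13 fell, against 3.07% and 2.47%, or 6 and 10 with spike-in scaling. On day 139 over day 2, 1 rose and 9 fell, against 2.87% and 1.99%, or 2 and 7 with spike-in scaling. As a share of the 34 members, the calls lower came to 32.4%, 38.2% and 26.5%. Of the 24 ligands 15 were called at least once, as were 4 of the 10 receptors, against 9.72% of all detected genes.

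The median log2 ratio of the ligands was -0.05 on day 2 over day 0, -1.002 on day 139 over day 0 and -0.14 on day 139 over day 2. The receptors had medians of 0.20, -0.10 and 0.19 and all detected genes 0.02, -0.00 and -0.03. The direction and size of these medians depended on the setting. The ligand median was 0.21 on day 2 over day 0 and 0.24 on day 139 over day 0 among genes well above background on all 3 arrays, -0.39 on day 139 over day 0 with no detection filter, and 0.27 on day 139 over day 2 with spike-in scaling, under which the receptor median on day 139 over day 0 was 0.27. Single ligands lay far from the median. Among those well above background on both days compared, they ran from Cxcl3 at -3.94 to Ccl8 at 3.95 on day 2 over day 0, and from Ccl7 at -4.10 to Ccl8 at 6.03 on day 139 over day 0.

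**Figure D1:**
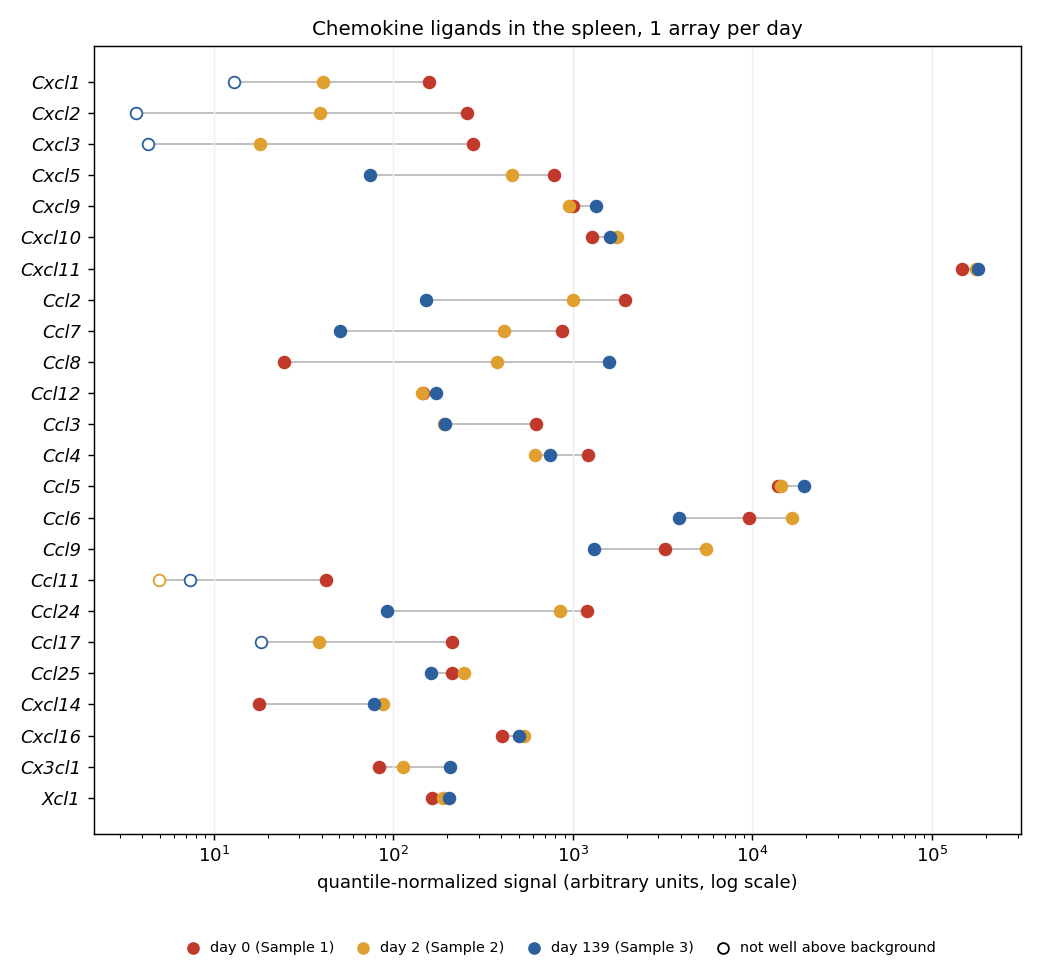
Quantile-normalized signal of the 24 detected ligands on day 0, day 2 and day 139, on a log scale, with 1 point per array and open points where the probe was not well above background. Cxcl1, Cxcl2, Cxcl3, Cxcl5, Ccl2, Ccl7, Ccl24 and Ccl17 have their lowest point on day 139 and their highest on day 0, and Ccl8 runs the other way, from 24.5 to 1600.1.

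The 4 detected ligands of Cxcr2 were all highest on day 0 and lowest on day 139. Cxcl1, which recruits neutrophils from the blood, read 158 on day 0, 40.7 on day 2 and 12.9 on day 139, where it was no longer well above background. Cxcl2, a close relative made by macrophages and neutrophils, read 257, 38.9 and 3.68, the last again not well above background. Cxcl3, the third of this group, read 279, 18.2 and 4.31, with day 139 not well above background. All 3 therefore lost most of their signal between the operation and day 2. From day 0 to day 2 Cxcl1 fell 3.89-fold, Cxcl2 6.59-fold and Cxcl3 15.4-fold, with log2 ratios of -1.96 ± 0.23, -2.72 ± 0.24 and -3.94 ± 0.33 (scanner error).

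For a probe not well above background on 1 of the days, the fold is a bound. It sets the bright day against the dimmest signal that counted as well above background on the other array, 18.2 on day 139, or against the probe's own signal where that was higher. So read, Cxcl1 fell at least 8.69-fold by day 139 from day 0, Cxcl2 at least 14.1-fold and Cxcl3 at least 15.3-fold. All 3 also met the criteria on day 139 over day 2, where the bound was 2.23-fold for Cxcl1 and 2.14-fold for Cxcl2, and where no fold can be given for Cxcl3, since its day 2 signal stood at the limit itself. With a normexp background, which adds an offset to every probe, none of the 3 was called between those days.

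Cxcl5, a neutrophil attractant that is also made by epithelial and stromal cells, read lower on day 2 but was called lower only on day 139, unlike its neighbors. It read 785 on day 0, 461 on day 2 and 73.9 on day 139, well above background throughout. The log2 ratio on day 2 over day 0 was -0.77 ± 0.20 with a Z-score of -1.58, which was not called. By day 139 Cxcl5 had fallen 10.6-fold from day 0 and 6.23-fold from day 2.

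Cxcr2, the receptor of these ligands on neutrophils, fell between day 0 and day 2. It read 1443 on day 0, 242 on day 2 and 283 on day 139. It fell 5.97-fold to day 2 and 5.09-fold to day 139, and its log2 ratio of day 139 over day 2 was 0.23 ± 0.21. Cxcl1, Cxcl2, Cxcl3 and Cxcl5 were all called lower on day 139 over day 2, while the receptor had no call over that interval. Neutrophil markers went partly the same way. Of 12 markers, 7 fell on day 2 and 6 on day 139 against day 0, with median log2 ratios of -1.29 and -1.30, and none was called between day 2 and day 139. The others were not called, and 3 of the 12 on day 2 and 4 on day 139 read above day 0, among them Camp, a granule protein of maturing neutrophils, at 5295, 7499.8 and 8696. Their summed signal was 265853 on day 0, 115082 on day 2 and 121269 on day 139, and none was at 0. Mmp8, a granule collagenase of neutrophils, read 3033, 139.7 and 135. In bulk tissue fewer cells of a type and less RNA per cell cannot be told apart, and the part of neutrophil number in the ligand and receptor signals was not tested.

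The Ccr2 ligands, which bring monocytes out of the bone marrow and into tissue, split by gene. Ccl2, also called MCP-1, read 1957 on day 0, 1007 on day 2 and 151 on day 139. Its probe lay on each array as 10 spots, whose signals before normalization had a mean of 2030.4 ± 113 on day 0, 1061 ± 41.8 on day 2 and 135 ± 8.09 on day 139 (SD over spots). The days did not overlap in any spot, so the 1.94-fold fall to day 2 and the 12.9-fold fall to day 139 are larger than the scatter within an array. The call on day 2 was lost with a ratio of 2 without a Z-score and with 1 SD over all detected probes. Ccl7, or MCP-3, read 867, 412 and 50.4. It fell 2.10-fold to day 2 and 17.2-fold to day 139, and 8.17-fold between those days. Ccl12, or MCP-5, a Ccr2 ligand of mice, had no such course at 146, 144 and 172, and its log2 ratios lay between -0.02 and 0.26.

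Ccr2, the receptor by which inflammatory monocytes leave the bone marrow, read 776 on day 0, 636 on day 2 and 419 on day 139. Its log2 ratios of -0.29 ± 0.20, -0.89 ± 0.20 and -0.60 ± 0.20 all missed the Z-score limit. Of 6 monocyte markers detected, 4 fell on day 2 over day 0, 4 on day 139 over day 0 and 3 on day 139 over day 2. Their median log2 ratios were -1.25, -1.99 and -1.06, their summed signal was 78560.3, 58805 and 43666, and none was at 0. The part of monocyte number in the course of Ccl2 and Ccl7 was not tested.

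Ccl8, or MCP-2, rose where Ccl2 and Ccl7 fell. It was dim on day 0 at 24.5, though well above background, and read 379.6 on day 2 and 1600.1 on day 139. It rose 15.5-fold to day 2 and 65.3-fold to day 139, and 4.22-fold between those days. Its log2 ratios against day 0 were 3.95 ± 0.26 (Z-score 8.28) and 6.03 ± 0.26 (Z-score 10.66). With the normexp background they were smaller, at 2.27 and 4.16, and still called, so the size of the fold depends on the background. Ccl8 was the member with the highest log2 ratio in all 3 comparisons, and of the 34 members it alone was called higher on day 139 over day 2. In mice Ccl8 is known as a ligand of Ccr8, made by resident macrophages of the skin and other tissues. The 10 red pulp macrophage markers had median log2 ratios of 0.05, -0.01 and -0.14, with 2 called lower on day 2 over day 0, 1 called lower on day 139 over day 0 and 2 called higher on day 139 over day 2, and a summed signal of 109370.0, 86866 and 87804.

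Among the ligands of Ccr1 and related receptors, 3 kinds of course were seen. Ccl3 and Ccl4, the macrophage inflammatory proteins made by activated myeloid and lymphoid cells, were highest on day 0. Ccl3 read 621 on day 0, 191 on day 2 and 195 on day 139, so that it fell 3.26-fold and 3.19-fold against day 0, with a log2 ratio of 0.03 ± 0.21 between the later days. Ccl4 read 1219.9, 617 and 746, and fell 1.98-fold to day 2. On day 139 over day 0 its log2 ratio was -0.71 ± 0.20 with a Z-score of -1.30 and it was not called.

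Ccl6 and Ccl9, which mice make in large amounts in macrophages and other myeloid cells, had their highest signal on day 2 instead. Ccl6 read 9555 on day 0, 16684 on day 2 and 3894 on day 139, and Ccl9 read 3282, 5549.8 and 1315. The log2 ratios on day 2 over day 0, 0.80 ± 0.20 for Ccl6 and 0.76 ± 0.20 for Ccl9, were not called. From day 2 to day 139 Ccl6 fell 4.28-fold and Ccl9 4.22-fold, and against day 0 they fell 2.45-fold and 2.50-fold. With spike-in scaling Ccl3, Ccl6 and Ccl9 were not called on day 139 over day 0, at -1.30, -0.89 and -0.92. The calls of Ccl6 and Ccl9 in that comparison were also lost with 1 SD over all detected probes.

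Ccl5, or RANTES, a product of T cells and natural killer cells, was bright and close to level, at 13959, 14433 and 19428, with log2 ratios of 0.05, 0.48 and 0.43 and no call. Ccr1, a receptor for Ccl3, Ccl5, Ccl6, Ccl7 and Ccl9 on monocytes and neutrophils, was dim, at 36.7 on day 0, 16.1 on day 2 and 3.56 on day 139, the last not well above background. It fell at least 2.01-fold on day 139 over day 0. Its day 2 signal lay below the day 139 limit, so no fold can be given between those days.

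Both eotaxins detected, Ccl24 and Ccl11, were highest on day 0. Ccl24, which macrophages make, read 1196 on day 0, 853 on day 2 and 92.7 on day 139. It was not called on day 2 over day 0, with a log2 ratio of -0.49 ± 0.20, and then fell 9.20-fold, which left it 12.9-fold below day 0. Ccl11, made by stromal cells, was well above background on day 0 only, at 41.9, against 4.99 and 7.41. It fell at least 2.99-fold to day 2, while for day 139 over day 0 the bound was 2.30-fold at a Z-score of -1.44, which was not called.

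Ccr3, the eotaxin receptor of eosinophils and basophils, read 2734 on day 0, 1475 on day 2 and 1642 on day 139. It fell 1.85-fold on day 2 over day 0, and its log2 ratio of -0.74 ± 0.20 on day 139 over day 0 was not called. The 4 eosinophil markers had a summed signal of 1003, 577 and 1835 and none was at 0. Of these 1, Prg2, fell on day 2 over day 0, and 1, again Prg2, rose on day 139 over day 2. On day 139 over day 0, 0 of the 4 were called, with 3 above day 0, 1 below and a median log2 ratio of 0.57. Ccl24 was at its lowest on the day on which the eosinophil marker sum was at its highest, but that sum rests on few markers. Of 4 basophil and mast cell markers 3 were detected, with median log2 ratios of 1.18 on day 2 and 1.57 on day 139 over day 0. In each of these comparisons 1 was called higher, and on day 139 over day 0 1 read below day 0. The part of cell number in the Ccr3 and Ccl24 signals was not tested.

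Ccl17, a ligand of Ccr4 that dendritic cells make and that draws T helper and regulatory cells, read 213 on day 0, 38.6 on day 2 and 18.2 on day 139, where it was not well above background. It fell 5.52-fold to day 2 and at least 11.7-fold to day 139. The further bound of 2.12-fold between day 2 and day 139 was not called, at a Z-score of -1.34. Conventional dendritic cell markers, 6 of 6 detected, had 0 calls in all 3 comparisons and median log2 ratios of -0.22, 0.04 and 0.20.

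The interferon-inducible Cxcr3 ligands were not called in any comparison. Cxcl9 read 1006 on day 0, 949 on day 2 and 1354 on day 139, and a second probe of it read 410.3, 322 and 510.2. Cxcl10 read 1274, 1752 and 1613, with a largest log2 ratio of 0.46 ± 0.20 on day 2 over day 0. The promoter of Cxcl10 shown above holds both kappaB matches and GAAANNGAAA, and its signal did not share the course of Cxcl1, Cxcl2 and Cxcl3. Interferon gamma itself, whose gene Ifng read 148, 119 and 207, had no call either.

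The signal named Cxcl11 cannot be read as that gene alone. Its brighter probe read 146252 on day 0, 176919 on day 2 and 181435 on day 139, the brightest of all members, while another probe of the gene read 2787, 2472 and 2131. The bright probe shares runs of 20 bases with 7 probes of other genes, whereas no other member shared such a run with more than 1. A run that 6 of these probes share with it, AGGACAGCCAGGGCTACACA, is also found in the promoter windows of 9 genes, Cxcl11 not among them. For this run the windows were searched over their full length, not only over the 250 bases before the start. The 2 probes gave log2 ratios of opposite sign, 0.31 and -0.39 on day 139 over day 0, and neither was called.

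Cxcr3, carried by effector T cells, memory T cells and natural killer cells, read 787 on day 0, 1069 on day 2 and 1590.0 on day 139. Its log2 ratio of 1.01 ± 0.20 on day 139 over day 0, 2.02-fold, had a Z-score of 1.75 and was not called. T cell markers, 9 of 9 detected, had 0 calls and median log2 ratios of 0.32, 0.81 and 0.53, with a summed signal of 13643, 18395 and 23737. Natural killer cell markers, 6 of 6 detected, had 0 calls and medians of -0.51, -0.29 and 0.09.

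Ccr6, the receptor of Ccl20 on B cells and some T cells, read 2170.3, 2858 and 4917. Its 2.27-fold ratio on day 139 over day 0 had a Z-score of 1.97, just under the limit. B cell markers, 8 of 8 detected, had a median log2 ratio of 1.103 on day 139 over day 0, with 4 called higher, and their summed signal was 47164, 46770.2 and 87986. With spike-in scaling Ccr6, Cxcr3 and Cx3cl1 were called higher on that comparison, at 1.55, 1.39 and 1.68. The part of B cell number in the Ccr6 signal was not tested. Ccl20 itself was not detected on any array. Ccl25, a thymic and intestinal ligand, read 213, 248 and 163 and its receptor Ccr9 184, 189 and 211, and neither was called.

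Cxcl14, a chemokine made by epithelial and stromal cells, was the other ligand that rose. It read 17.8 on day 0, 87.5 on day 2 and 77.8 on day 139, well above background each time. It rose 4.91-fold and 4.36-fold against day 0, with log2 ratios of 2.30 ± 0.33 and 2.13 ± 0.34, and was not called between day 2 and day 139, at -0.17 ± 0.23. With the normexp background its log2 ratio on day 139 over day 0 was 0.73 and not called. Spleen mesenchyme markers, 5 of 5 detected, had 3 called higher on day 2 over day 0 and 0 on day 139 over day 0, with a summed signal of 5191, 23116 and 4552. The other 2 read below day 0 on day 2, and the largest ratios on that day were those of the collagen genes Col3a1 and Col1a1. The part of mesenchyme in the Cxcl14 signal was not tested. Cxcl16, a membrane-bound ligand that also takes up oxidized lipid, read 405, 536 and 502. Its receptor Cxcr6, found on natural killer T cells and other resident T cells, read 825, 1059 and 625, and neither was called.

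Cx3cr1, the fractalkine receptor of patrolling monocytes and tissue macrophages, was the only receptor that rose. It read 1024 on day 0, 2440.2 on day 2 and 2933 on day 139, so that it rose 2.38-fold and 2.86-fold against day 0 with log2 ratios of 1.25 ± 0.20 and 1.52 ± 0.20. Both calls were lost with 1 SD over all detected probes. A second, dimmer probe of the gene read 52.8, 188 and 165 and was called higher in the same comparisons, with log2 ratios of 1.83 and 1.64. Its ligand Cx3cl1, or fractalkine, read 82.8, 114 and 206, and its 2.49-fold ratio on day 139 over day 0 had a Z-score of 1.97 and was not called. On day 139 over day 0, Ccr2, carried by inflammatory monocytes, had a log2 ratio of -0.89 that was not called, beside 1.52 for Cx3cr1. Since Cx3cr1 is also carried by tissue macrophages, these signals do not give the monocyte subsets. The part of those subsets was not tested.

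Xcl1, or lymphotactin, a product of natural killer and CD8+ T cells, read 163 on day 0, 189 on day 2 and 203 on day 139. Xcr1, its receptor on cross-presenting dendritic cells, read 33.4, 45.5 and 57.6. None of their ratios was called, and the highest, that of Xcr1 on day 139 over day 0, was 1.73-fold at a Z-score of 0.99.

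**Figure D2:**
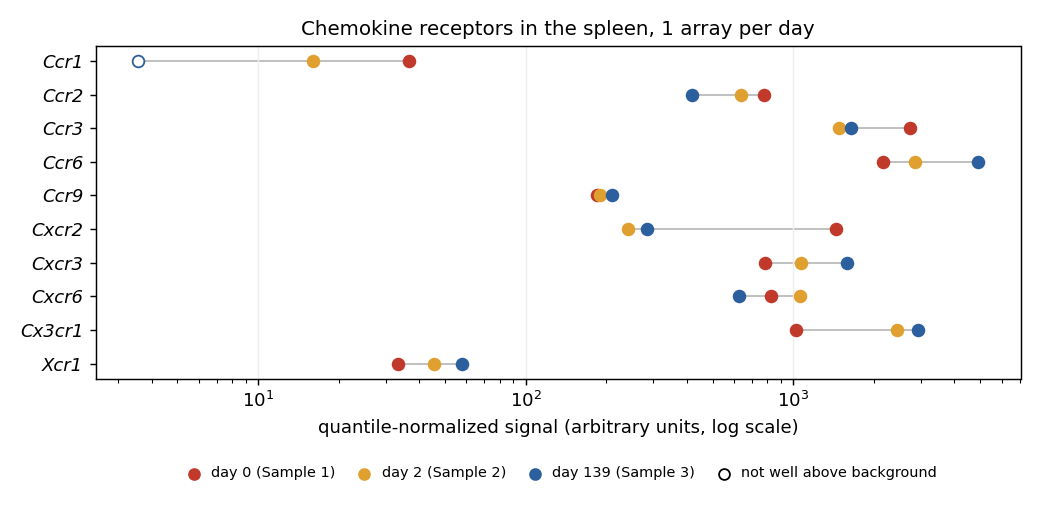
Quantile-normalized signal of the 10 receptors on day 0, day 2 and day 139, on a log scale, with 1 point per array and an open point where the probe was not well above background. Cxcr2 drops from 1443 to 242 and stays near there, Cx3cr1 moves from 1024 to 2440.2 and 2933, and Ccr1 ends below the background limit.

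Ligands and receptors can also be set side by side. Both fell for Cxcr2 with Cxcl1, Cxcl2 and Cxcl3 on day 2 and on day 139 over day 0, for Cxcr2 with Cxcl5 on day 139 over day 0, for Ccr3 with Ccl11 on day 2 over day 0, and for Ccr1 with Ccl3, Ccl6, Ccl7 and Ccl9 on day 139 over day 0. Cx3cr1 rose against day 0 while Cx3cl1 was not called, and Ccl2 and Ccl7 fell while Ccr2 was not called. On day 2 over day 0 Cxcr2 fell without a call for Cxcl5, and Ccr3 fell without one for Ccl24. Over the same days Ccl3 and Ccl7 fell without a call for Ccr1. On day 139 over day 0 Ccr1 fell without a call for Ccl5, and Ccl24 fell without one for Ccr3. The Ccr1 signal on day 139, 3.56, was not well above background. On day 139 over day 2 no receptor was called, against 10 of the ligands. The comparisons share arrays, so their calls are not separate evidence.

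**Figure D3:**
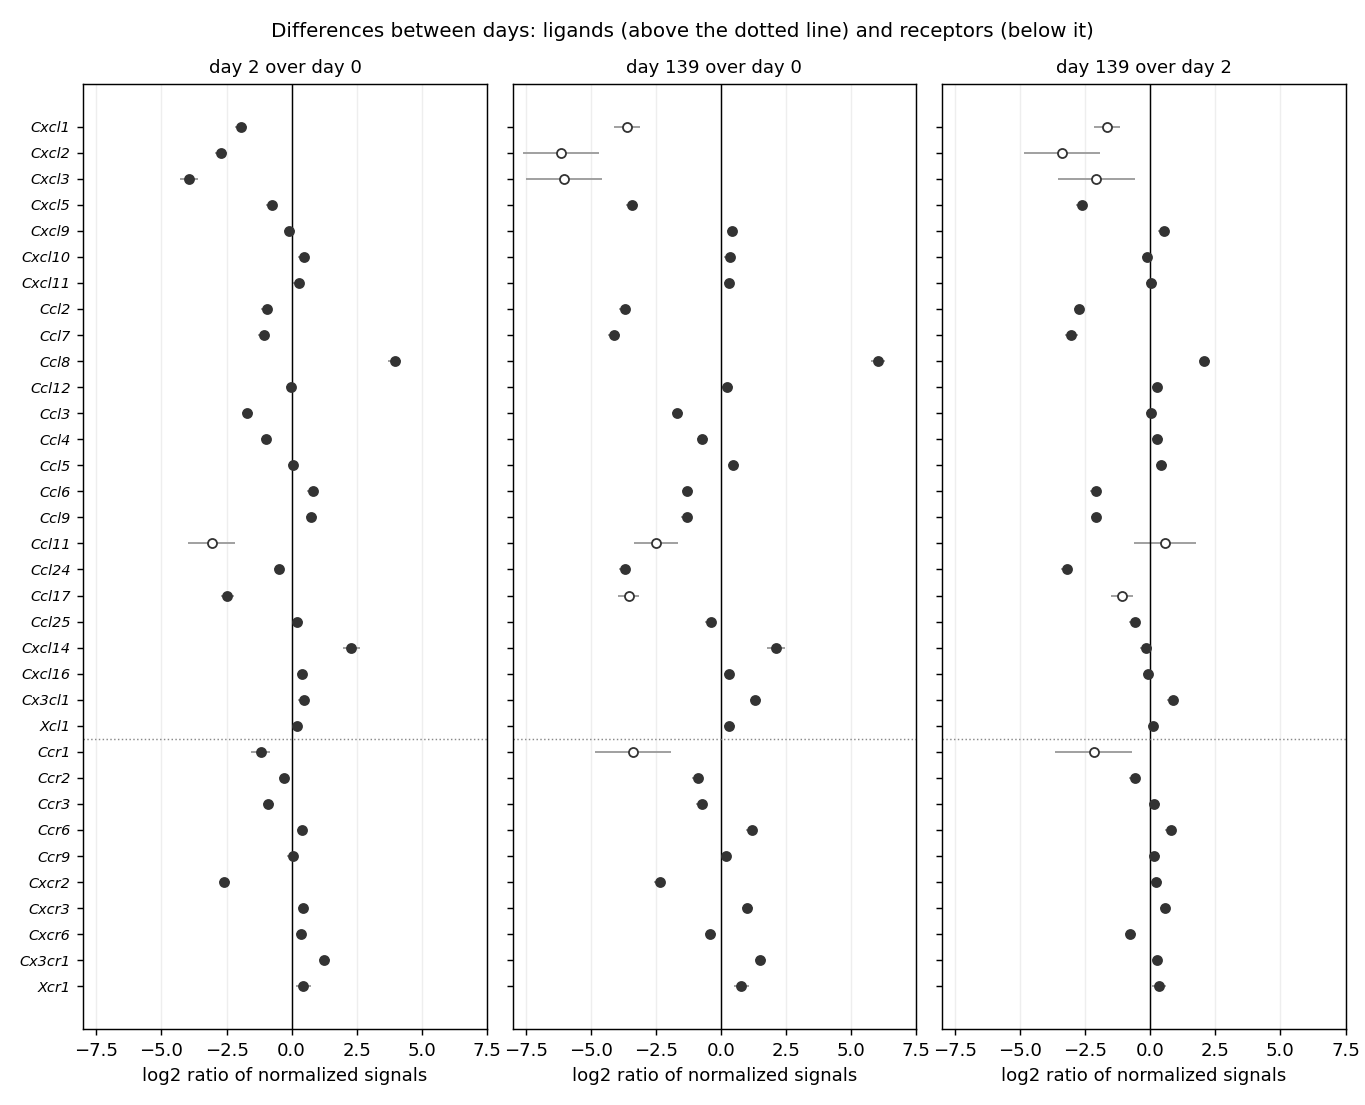
Log2 ratio of normalized signals for each of the 34 detected members in the 3 comparisons, ligands above the dotted line and receptors below, with bars for the scanner's spot error and open points where a side was not well above background. Ccl8 is the point farthest to the right in each panel, and the open points of Cxcl1, Cxcl2 and Cxcl3 on day 139, plotted as read, stand for bounds or for no fold and have no order among themselves.

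The order of the 3 days sorted the members into 4 kinds. Signals were lower at each step for 10 of 34 members, or 29.4%, against 17.8% of all detected genes, and higher at each step for 10, against 18.1%. Another 7 members were highest on day 2 (34.6% of all genes) and 7 lowest on day 2 (29.4% of all genes). Steps of 1.5-fold or more, both in the same direction, were mostly downward. In 8 members, 23.5%, the signals as read were lower by 1.5-fold or more at both steps, against 1.13% of all detected genes counted in the same way, namely Cxcl1, Cxcl2, Cxcl3, Cxcl5, Ccl2, Ccl7, Ccl17 and Ccr1. For Cxcl1, Cxcl2, Cxcl3, Ccl17 and Ccr1 the second step ends in a signal not well above background, and for Cxcl3 and Ccr1 that step has no fold. Both steps were at least 1.5-fold up for Ccl8 alone among the members, and for 1.02% of all genes.

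Chemokine genes lie in clusters, and neighbors did not always move alike. On chromosome 5 (mm9 positions of the array probes), Cxcl5 at chr5:91190490-91190549, Cxcl3 at chr5:91216694-91216753, Cxcl1 at chr5:91321845-91321904 and Cxcl2 at chr5:91334534-91334593 lie within 144 kb, and all 4 fell on day 139 over day 0. Further along, Cxcl9 at chr5:92752191-92752250 and Cxcl10 at chr5:92775781-92775840 were not called. On chromosome 11, Ccl2 at chr11:81850650-81850709 and Ccl8 at chr11:81930108-81930167 are the ends of a run of 5 genes within 79.5 kb. In this run the log2 ratio on day 139 over day 0 was -3.69 for Ccl2 and -4.10 for Ccl7 but 0.24 for Ccl12 and 6.03 for Ccl8, next to it. Also on chromosome 11, Ccl5, Ccl9, Ccl6, Ccl3 and Ccl4 lie within 139 kb and held all 3 of the courses described for them. Of the 6 receptors within 333 kb on chromosome 9, namely Ccr9, Cxcr6, Xcr1, Ccr1, Ccr3 and Ccr2, Ccr1 and Ccr3 were called lower in 1 comparison each. The exon or UTR in which each probe lies was not analysed here.

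**Figure D4:**
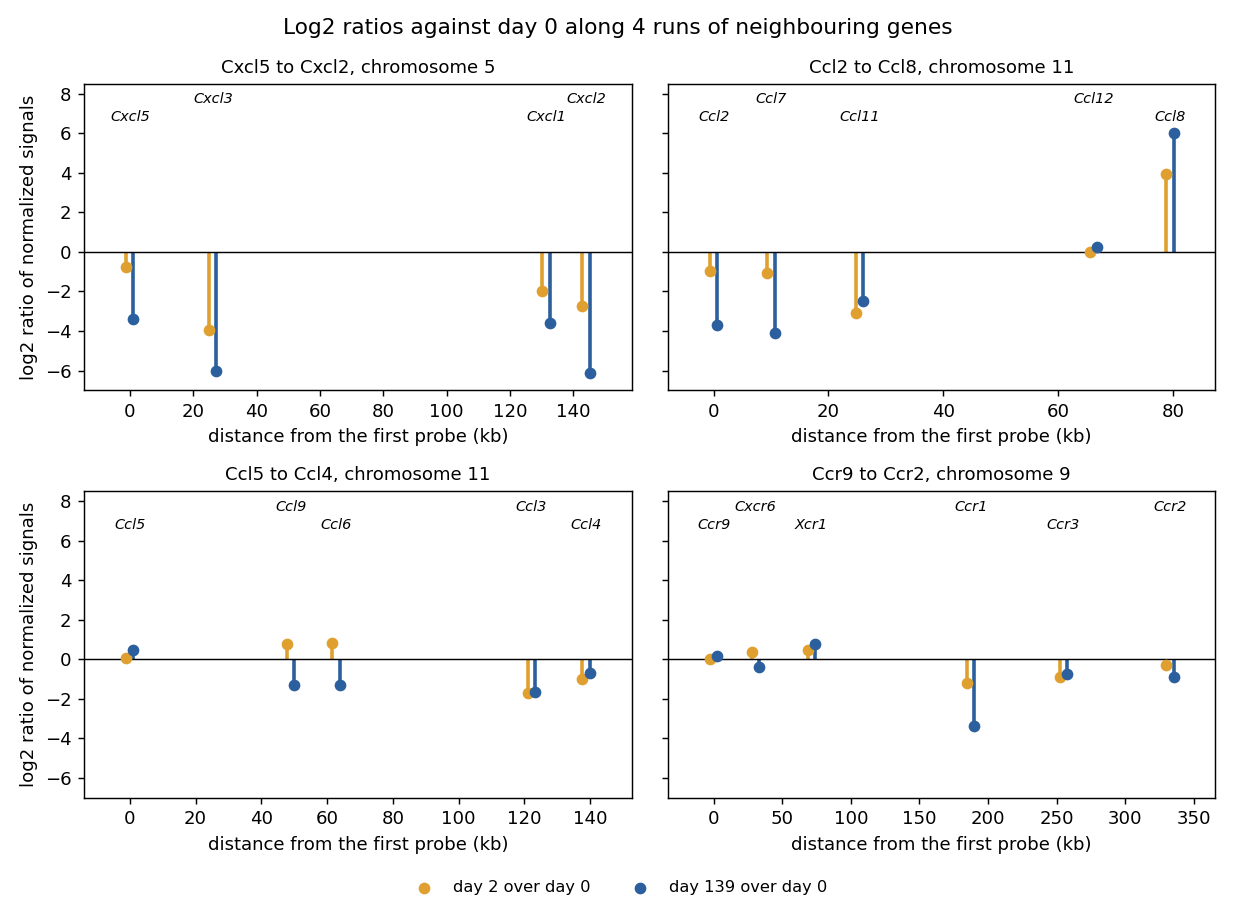
Log2 ratio of day 2 over day 0 and of day 139 over day 0 for the members of 4 gene clusters, placed by the distance of their probes from the first in kb. All 4 genes of the Cxcl5 to Cxcl2 cluster lie below 0, whereas the Ccl2 to Ccl8 cluster runs from -3.69 for Ccl2 to 6.03 for Ccl8 on day 139 over day 0. Signals not well above background are included as measured, for Cxcl1, Cxcl2 and Cxcl3 on day 139, Ccr1 on day 139 and Ccl11 on both later days.

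Other genes of the chemokine system were counted in the same way. Of 17 detected genes of cytokine inducers and NF-kB feedback, 4 fell on day 2 over day 0, 5 on day 139 over day 0 and 0 were called on day 139 over day 2. Il6, the gene of interleukin 6, read 841 on day 0, 50.9 on day 2 and 40.4 on day 139. Il1b, the gene of interleukin 1 beta, read 3926, 721 and 1378, and Socs3, a feedback inhibitor that interleukin 6 induces, read 7204, 1645 and 2315. These 3 genes, named for their large ratios, fell on both days against day 0, as Cxcl1, Cxcl2 and Cxcl3 did. The NF-kB feedback genes Nfkbia, Nfkbiz and Tnfaip3 were not called in any comparison, and neither was Tnf. Nfkbia read 13407, 12430 and 13298, Nfkbiz 150, 104 and 157, Tnfaip3 1280, 1041 and 1266, and Tnf 166, 82.1 and 191. The median of the list was -0.47 on day 2 over day 0 and -0.01 on day 139 over day 0.

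Of 7 homeostatic chemokines and receptors listed, 5 had a probe under the name searched, and Ccl21a and Ccl21b had none. These 5 were all detected, and 2 of them were called lower on day 2 over day 0. On day 139 over day 0, 1 gene rose and 1 fell, and on day 139 over day 2, 2 rose and 0 fell. Cxcl12, the stromal ligand that holds cells in the red pulp and bone marrow, read 29485, 14748 and 13266 and fell on both days against day 0. Cxcl13, which draws B cells into follicles, read 2025, 1118 and 2478, and its receptor Cxcr5 read 1353, 1214 and 2908, and both rose on day 139 over day 2. Of 7 atypical receptors and platelet chemokines, 1 fell on day 2 over day 0, 0 were called on day 139 over day 0, and 1 rose and 1 fell on day 139 over day 2. The 22 genes of chemokine receptor signaling, among them G protein subunits, Rac, Dock2, arrestins and RGS proteins, had 0 calls in all 3 comparisons and medians of -0.05, -0.04 and 0.18.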

How the data were processed

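RNA from islet graft-bearing spleens on day 0, day 2 and day 139 was measured on 1 one-color Agilent array each. The authors deposited the spot intensity of each array, after background subtraction by Feature Extraction 10.7.1.1 per the file headers (the submitters' notes and the paper name 9.5.1.1), and 1 table of processed intensity values, which for the members differed from the values here by at most 0.0031 on the log2 scale. RNA kits differ between the labels and the paper.

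Outlier-flagged spots were left out, the spots of each of 55679 probes averaged, and the probes quantile normalized across the 3 arrays, with values under 1 set to 1 before log2 (Python 3.11.15, numpy 2.4.6, pandas 2.3.3). The brightest detected probe stood for a gene. With 1 array per day no p-value was computed, and the 3 arrays limit the precision. Alternatives were a normexp background with an offset of 50 (limma 3.58.1, R 4.3.3), 75th percentile and spike-in scaling, the deposited values, other detection filters, a ratio of 2 without Z-score, 1 SD over all probes, and the median of a gene's probes. Probe positions are those of the array (mm9).

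The members, the pathway and marker lists and the alternatives were chosen with earlier results of these data known. Every detected member is given, those called with all 3 signals, and at most 3 genes of a further list are named by size of ratio. Ifng, Tnf, Nfkbia, Nfkbiz, Tnfaip3 and the homeostatic genes are named by role instead. Camp is named as a marker that read above day 0. One gene of this system is not reported here.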

Additional observations from a re-analysis of the deposited data

How the results depend on the processing

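The 40 calls among the members (7 higher and 33 lower over the 3 comparisons) changed sign under none of the 9 alternatives. Scaling to the 75th percentile, the deposited values, no detection filter and the median of a gene's probes kept all 40. The normexp background kept 36, spike-in scaling 35 (Cxcl1 and Cxcl3 on day 139 over day 2 were lost with 3 others below), a ratio of 2 without a Z-score 37, 1 SD over all detected probes 32 and the filter to genes well above background on all 3 arrays 27. That filter drops members that end at background, so the members called lower went from 11 to 6 on day 2 over day 0 and from 13 to 8 on day 139 over day 0. It moved the ligand median to 0.21 and 0.24 in these comparisons and the receptor median, without Ccr1, to 0.19 on day 139 over day 0. With 1 SD over all detected probes 7 members were called lower on day 2 over day 0, without Ccl2, Ccl4, Ccl7 and Ccr3. Under it Cx3cr1 was no longer called higher on day 2 or day 139 over day 0, and Ccl6 and Ccl9 no longer lower on day 139 over day 0.

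Spike-in scaling, which shifts all detected probes up on day 139, gave 6 members called higher on day 139 over day 0 (Cx3cl1, Ccr6 and Cxcr3 beside Ccl8, Cxcl14 and Cx3cr1) and 2 on day 139 over day 2, and Ccl3, Ccl6 and Ccl9 were no longer called lower on day 139 over day 0. The ligand medians under it were -0.60 on day 139 over day 0 and 0.27 on day 139 over day 2, and the receptor medians 0.27 and 0.62. A ratio of 2 without a Z-score also gave 6 members called higher on day 139 over day 0. The ligand median on day 139 over day 0 was -0.56 with the normexp background and -0.39 without a detection filter, against -1.002 as reported. Under normexp Cxcl1, Cxcl2 and Cxcl3 were not called on day 139 over day 2 and Cxcl14, at 0.73, not on day 139 over day 0. The cause of these shifts was not tested beyond what each setting does by construction.

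No paired analysis was possible because each day has 1 array. Signal over background limits Ccl11, Ccl17, Ccr1, Cxcl1, Cxcl2 and Cxcl3, which have a side not well above background in 9 of the 40 calls. Of these, 8 are given as bounds and 1, Cxcl3 on day 139 over day 2, has no fold.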
